A study of Sus scrofa with 35 samples.

Results

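The genes described here encode complexes II, III, IV and V of the mitochondrial respiratory chain and cytochrome c, measured in whole blood of pigs. They were found by name: a probe was taken where its gene symbol began with SDHA to SDHD, UQCR, COX4 to COX8, CYC or ATP5. This rule caught 164 of the 60305 probes of the array, and 158 of them were among the 39072 probes in the authors' table of log2 values. Of these, 5 belonged to genes outside the chain and are given apart. The other 153 probes read 39 genes, namely 3 of complex II, 8 of complex III, cytochrome c, 12 of complex IV, 5 of the catalytic head of complex V and 10 of its membrane part with the side stalk. No probe name matched SDHC, COX6A2, COX6B2, COX7B2, COX8A or COX8C. The probes of COX4I2 and UQCRFS1 were well above background on 4 and 6 of 35 arrays and were not in the table.

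All animals were castrated males, moved to the climatic room at 11 weeks of age according to the methods, of the Creole (CR) or Large White (LW) breed or of the cross between them (F1). Thermoneutral (TN) pigs were kept at 24 °C. Heat-stressed (HS) pigs are labelled 30 °C, while the protocol gives 32 °C and the methods 4 or 5 d of exposure before slaughter. There were 6 pigs per group and 5 in CR under TN. TN pigs were slaughtered before the temperature rose, so climate, day of slaughter and age cannot be told apart. Each pen held 3 pigs of 1 breed from different litters and was slaughtered at 1 temperature. The labels do not say which pigs shared a pen or a litter. Blood was taken at exsanguination into PAXgene tubes, which lyse all blood cells together.

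In the inner mitochondrial membrane, complex II (succinate dehydrogenase) passes electrons from the citric acid cycle to ubiquinone, complex III hands them to cytochrome c, and complex IV (cytochrome c oxidase) gives them to oxygen. Complex V, the ATP synthase, uses the proton gradient built by electron transport to make ATP. All genes below are nuclear, since the mitochondrial subunits do not carry these symbols. Mature mammalian red cells lack mitochondria, so in blood these messengers come from leukocytes, platelets and young red cells.

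Values are log2 intensities, on which a difference of 1 is a 2-fold change, and a gene was read by its brightest probe. HS minus TN differences over 3 breeds come from a limma fit with breed as a term, those of 1 breed from the 6 group means, and p-values were adjusted over all 39072 probes by the Benjamini-Hochberg method. Two-sided adjusted p below 0.05 is called up-regulated or down-regulated. Whole-series facts bear on every value. The F1 TN arrays were the dimmest, with a mean 75th percentile of processed intensity of 150 ± 28.2 (SD, n = 6) against 238 ± 35.6 in F1 HS and 202 to 228 in the other groups. The summed erythroid list, 11 measured genes such as ALAS2 and HBB, moved with climate too: its mean log2 value was 11.11 ± 0.67 in F1 TN against 10.16 ± 0.56 in F1 HS, 10.74 ± 0.54 against 10.34 ± 0.62 in CR and 10.83 ± 0.29 against 10.53 ± 0.35 in LW. Over 3 breeds, 5 of its 11 genes were down-regulated and 1, SLC4A1, up-regulated. Fewer cells of a type and less RNA per cell cannot be told apart in whole blood.

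The probe sequences below are those on which a reading of the results turns. CYC1 and UQCRC1 are shown because these probes of complex III subunits rose in HS, and SDHA because the succinate dehydrogenase flavoprotein did so on 5 of its 6 probes. In the CYCS probe, the capitals mark the start codon and only the bases from there on are given.
CYC1 O8983: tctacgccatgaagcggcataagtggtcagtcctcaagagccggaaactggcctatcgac
UQCRC1 O4764: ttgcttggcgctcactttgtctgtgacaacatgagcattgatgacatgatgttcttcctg
SDHA A_72_P380073: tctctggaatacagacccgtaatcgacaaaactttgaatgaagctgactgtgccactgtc
CYCS A_72_P654023: ATGggtgatgttgagaagggcaag
COX4I1 O9125: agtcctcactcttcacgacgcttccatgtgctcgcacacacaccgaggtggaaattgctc

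Over 3 breeds, 14 of the 39 genes were detected as differentially expressed between climates, 11 up-regulated and 3 down-regulated in HS. This share lies close to the background, since 34.8% of all 39072 probes were called, 20.1% higher and 14.7% lower. The study's own model, with pen, slaughter day and parents as random effects, called far fewer blood probes at the same threshold. The median difference was 0.03 over the 39 genes and 0.06 over all probes. Counted by probe, 59 of 153 were called, 47 higher and 12 lower, with a median of 0.10. The up-regulated genes were SDHA, CYC1, UQCRC1, UQCR11, CYCS, COX4I1, COX5A, COX5B, ATP5A1, ATP5B and ATP5G2. COX4I1 is counted here although its only probe may not read the messenger, as described with complex IV. The down-regulated genes were COX7A2, ATP5E and ATP5J. With the erythroid list mean as a covariate, 0 of the 39 genes were called and 2 of all 39072 probes (0.00512%), and without the F1 pigs 0 of both. Under the covariate CYCS read 0.42, COX4I1 0.27, SDHA 0.24 and ATP5A1 0.21, against 0.38, 0.30, 0.30 and 0.25 without it. COX5A read 0.36, CYC1 0.20, ATP5B 0.19, ATP5G2 0.16 and UQCRC1 0.12, against 0.52, 0.26, 0.25, 0.29 and 0.22. COX7A2 read -0.08, ATP5J -0.08 and ATP5E -0.09, against -0.20, -0.36 and -0.29. The 2 lowest counts with 1 array left out, 9 genes each, came without CR HS replicate 3 or F1 HS replicate 6.

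**Figure D1:**
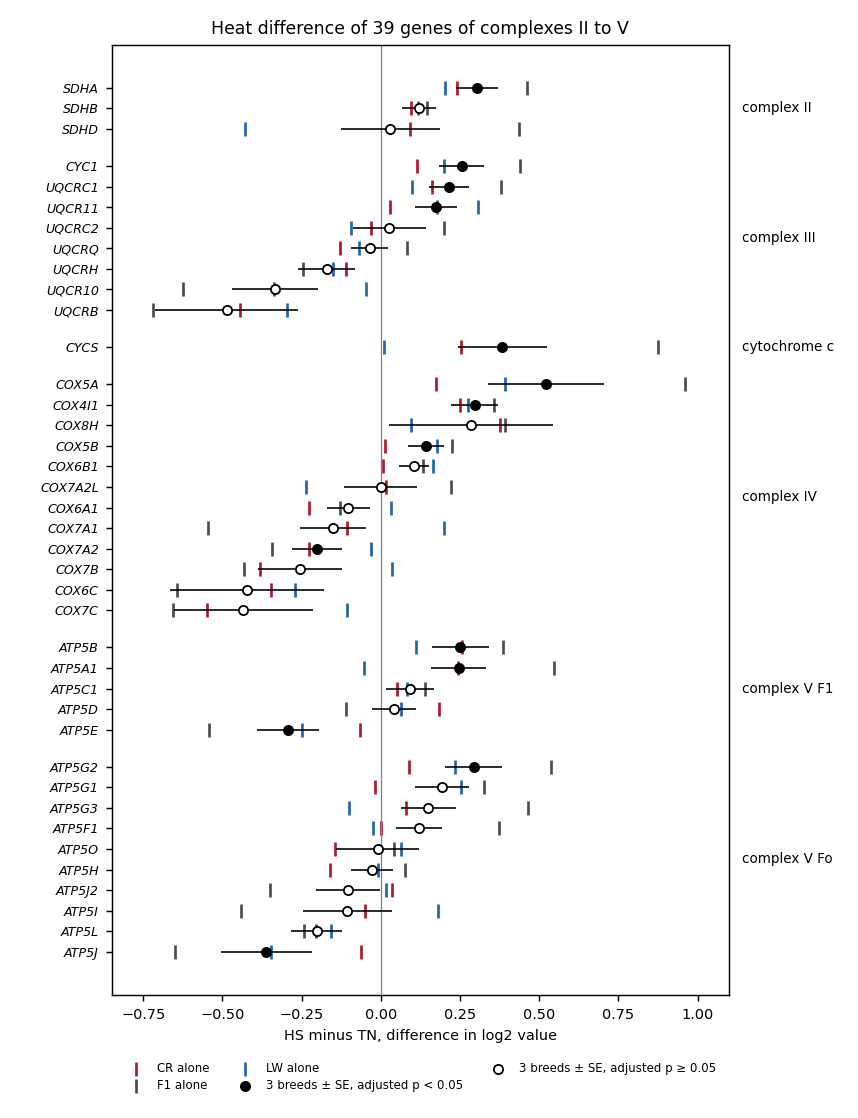
Difference in log2 value between HS and TN (x axis) for 39 genes (y axis), grouped by complex. Circles with bars are the estimate ± SE over 3 breeds (n = 18 HS and 17 TN pigs), filled where adjusted p was below 0.05, and ticks are CR, F1 and LW alone. The 14 filled circles lie on both sides of 0, and the F1 tick is the outermost of the 3 for all of them but UQCR11.

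Complex II had 1 of 3 genes up-regulated and none down-regulated, where 34.8% of all probes were called, 20.1% higher and 14.7% lower. SDHA, on chromosome 16 at chr16:79838442-79862956 in Sscrofa11.1, encodes the flavoprotein that oxidises succinate. Its log2 value ran from 12.59 to 13.15 with a median of 12.86 in F1 TN pigs and from 13.25 to 13.43 with a median of 13.31 in F1 HS pigs. All 6 F1 HS pigs lay above all 6 F1 TN pigs. In CR the range was 12.84 to 13.25 (median 13.07) in TN and 12.67 to 13.56 (13.36) in HS, and in LW 12.94 to 13.35 (13.05) and 13.14 to 13.45 (13.31), so the climates overlapped in both. SDHA was up-regulated by 0.30 ± 0.07 (SE) over 3 breeds (adjusted p = 0.00185), by 0.46 ± 0.11 in F1 (adjusted p = 0.00223), and differed by 0.24 in CR and 0.20 in LW (adjusted p = 0.557 and 0.59).

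The brightest SDHA probe had the same 60 bases as the probe of SDHAP3, a pseudogene of SDHA that the name rule also caught. The first 30 of these bases are given, since the signal of either name cannot be assigned to a gene.
SDHA O4591, SDHAP3 O10109: gcctttgtccctgcttcgttcttgtgaaat
Over 35 arrays this pair of spots differed by 0.35 ± 0.08 (SD) in log2 value, which shows the offset between identical probes at different places on an array. The HS minus TN difference was 0.30 on the one and 0.33 on the other. The coding SDHA probe shown above, A_72_P380073, gave 0.24 ± 0.07 (adjusted p = 0.00705) over 3 breeds, with F1 TN pigs between 9.71 and 10.16 and F1 HS pigs between 10.24 and 10.32. One SDHA probe, A_72_P161336, read -0.17 (adjusted p = 0.0966) over 3 breeds and -0.42 in F1 (adjusted p = 0.0129), against the direction of the other 5.

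SDHB, the iron-sulphur subunit, is on chromosome 6 at chr6:75648362-75678111. Its brightest probe differed by 0.12 ± 0.05 (adjusted p = 0.0715). Among its 9 probes 1 was up-regulated, A_72_P649194 by 0.19 (adjusted p = 0.0259), and 1 down-regulated, A_72_P578256 by -0.32 (adjusted p = 0.0124). The latter overlaps A_72_P643427 over 57 bases with 2 mismatches, C31G and G32A counted from the first base of A_72_P578256, shown in capitals.
SDHB A_72_P578256: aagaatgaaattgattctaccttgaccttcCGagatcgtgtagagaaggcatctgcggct
SDHB A_72_P643427: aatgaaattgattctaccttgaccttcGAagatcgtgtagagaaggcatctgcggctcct
In F1 pigs A_72_P578256 ran from 10.02 to 10.65 in TN and from 9.24 to 9.94 in HS, without overlap, and differed by -0.70 ± 0.14 (adjusted p = 0.000652). A_72_P643427 ran from 8.76 to 9.52 in TN and 8.79 to 9.19 in HS and differed by -0.18 ± 0.11 (adjusted p = 0.2). Over 3 breeds 8 of the 9 SDHB probes read above 0, and A_72_P578256 was the exception. SDHD, a membrane anchor, read 0.03 ± 0.16 on its brightest probe (adjusted p = 0.894). One of its 9 probes, A_72_P630935, was down-regulated by -0.29 (adjusted p = 0.00188). Another SDHD probe, O9140, read 0.02 (adjusted p = 0.845), and its strand is in doubt as for COX4I1 below.

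Complex III had 3 of 8 genes up-regulated and none down-regulated over 3 breeds, where 34.8% of all probes were called. CYC1, cytochrome c1, ran from 11.06 to 11.74 (median 11.51) in F1 TN and from 11.85 to 12.03 (11.91) in F1 HS, again without overlap. In CR it ran from 11.45 to 11.95 (11.69) in TN and from 11.24 to 12.17 (11.86) in HS, and in LW from 11.45 to 11.68 (11.59) and from 11.52 to 11.91 (11.81). CYC1 was up-regulated by 0.26 ± 0.07 over 3 breeds (adjusted p = 0.0071) and by 0.44 ± 0.12 in F1 (adjusted p = 0.00469). UQCRC1, a core protein, ran from 12.50 to 12.86 (12.76) in F1 TN and from 12.91 to 13.23 (13.13) in F1 HS. Its CR values were 12.75 to 12.98 (12.84) in TN and 12.82 to 13.26 (13.02) in HS, and its LW values 12.49 to 12.99 (12.88) and 12.59 to 13.30 (12.92). The climates lay apart in F1 alone among these groups. UQCRC1 was up-regulated by 0.22 ± 0.06 over 3 breeds (adjusted p = 0.00869), and its coding probe O4764 by 0.34 ± 0.09 (adjusted p = 0.00657). UQCR11, a small subunit, was up-regulated by 0.18 ± 0.07 (adjusted p = 0.0377).

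UQCRB, the ubiquinone-binding protein, read -0.49 ± 0.22 (adjusted p = 0.088), and 7 of its 8 probes were negative without any passing the test. UQCR10 read -0.34 ± 0.14 over 3 breeds (adjusted p = 0.0522) and was down-regulated in F1 by -0.62 ± 0.23 (adjusted p = 0.0304). UQCRH, the hinge protein, read -0.17 on its brightest probe (adjusted p = 0.132), and its other probe was down-regulated by -0.26. UQCRC2 (0.03) and UQCRQ (-0.04) were not called on any probe.

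CYCS encodes cytochrome c, the soluble carrier between complexes III and IV, and lies at chr18:47169921-47172212. Its brightest probe ran from 8.29 to 8.78 (median 8.63) in F1 TN and from 9.0 to 9.77 (9.6) in F1 HS. It ran from 8.73 to 10.03 (9.19) in CR TN, 8.48 to 9.99 (9.80) in CR HS, 8.97 to 9.67 (9.31) in LW TN and 8.55 to 9.63 (9.49) in LW HS. All F1 TN pigs were thus below all F1 HS pigs. CYCS was up-regulated by 0.38 ± 0.14 over 3 breeds (adjusted p = 0.0336), a call lost with any of 9 single arrays left out (adjusted p up to 0.0558), and by 0.87 ± 0.22 in F1 (adjusted p = 0.00329). In LW the difference was 0.01 ± 0.22 and in CR 0.25 ± 0.23. The probe at the start codon gave 0.41 ± 0.13 (adjusted p = 0.0137) and in F1 0.86 ± 0.20 (adjusted p = 0.00147). Of the 13 CYCS probes, 9 read above 0 and 2 were called. One of the 9, O10663, read 0.11 (adjusted p = 0.0689), and its strand is in the same doubt as that of the COX4I1 probe described with complex IV. The mean of all 13 probes differed by 0.10 over 3 breeds, which did not pass the test (adjusted p = 0.4).

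**Figure D2:**
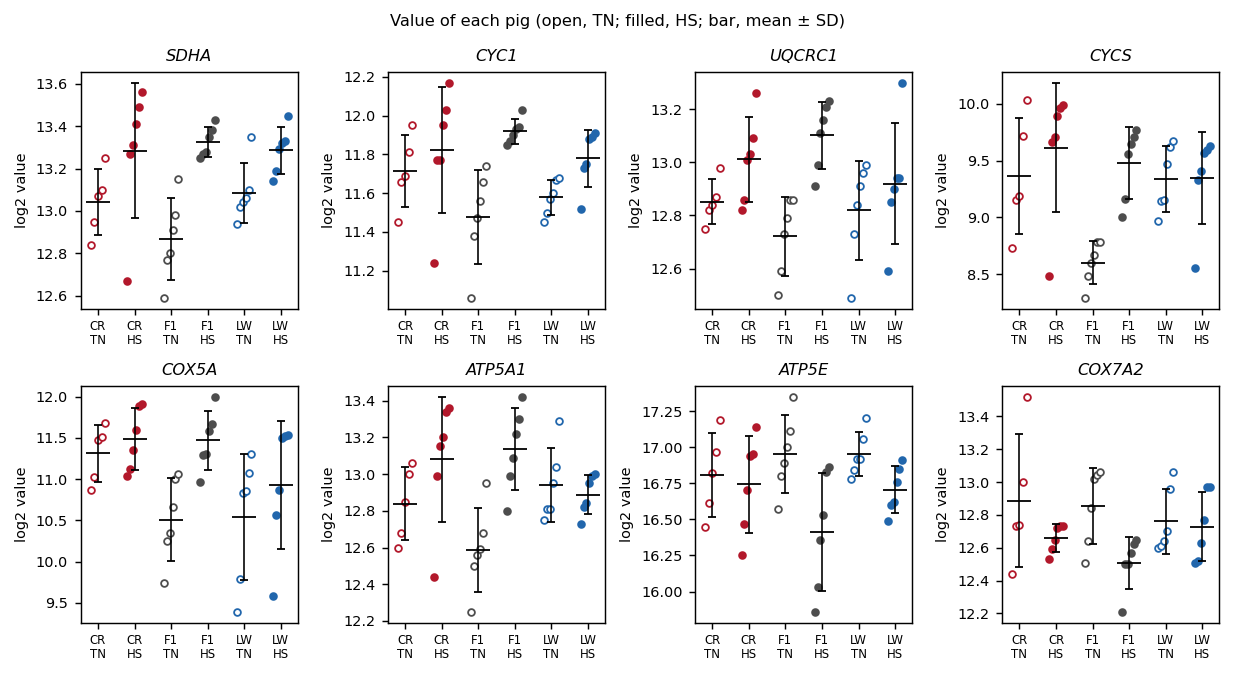
Log2 value of each pig (y axis) for 8 genes in the 6 groups (x axis), each on the scale of its own probe. Circles are pigs, open for TN and filled for HS, and bars are the mean ± SD (n = 5 in CR TN, otherwise 6). In F1, HS and TN pigs do not overlap for SDHA, CYC1, UQCRC1 and CYCS, while in CR and LW they overlap for all 8 genes.

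HS and TN pigs of F1 did not overlap for 4 of 39 genes with HS above, and for 14 of 153 probes, where 3.59% of all probes lay apart in this way. With HS below, 0 genes and 1 probe, SDHB A_72_P578256, lay apart against 8.08% of all probes. In CR, 0 genes lay apart with HS above (0.417% of all probes) and 1 probe, COX6A1 A_72_P052866, with HS below (0.0435%). In LW, 0 genes lay apart with HS above (0.683%) and 1 probe, ATP5L A_72_P203782, with HS below (0.0973%).

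Complex IV had 3 of 12 genes up-regulated and 1 down-regulated, where 34.8% of all probes were called. The 3 include COX4I1, whose probe is in doubt as described below. COX5A, a nuclear subunit bound at the matrix side, ran from 9.74 to 11.06 (median 10.50) in F1 TN and from 10.97 to 12 (11.44) in F1 HS, with 2 TN pigs inside the HS range. The spread was widest in LW, from 9.39 to 11.30 (10.84) in TN and 9.58 to 11.54 (11.19) in HS, against 10.87 to 11.68 (11.48) and 11.04 to 11.91 (11.47) in CR. COX5A was up-regulated by 0.52 ± 0.18 (adjusted p = 0.0275, and 0.0509 without F1 TN replicate 4) and in F1 by 0.96 ± 0.31 (adjusted p = 0.0148). COX5B was up-regulated by 0.14 ± 0.06 (adjusted p = 0.0487).

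COX4I1, the ubiquitous form of subunit IV, was read by 1 probe. It ran from 8.12 to 8.74 (median 8.34) in F1 TN and 8.57 to 8.91 (8.68) in F1 HS, from 8.24 to 8.59 (8.42) and 8.19 to 8.95 (8.78) in CR, and from 8.15 to 8.90 (8.48) and 8.44 to 9.17 (8.70) in LW. The medians were higher in HS in each breed and all ranges overlapped. COX4I1 was up-regulated by 0.30 ± 0.07 (adjusted p = 0.00386), with 0.25 in CR, 0.36 in F1 and 0.28 in LW. No other probe of the array shares 20 bases with this one on either strand. The amino acids that the gene is known to encode are spelled by the reverse complement of the sequence printed above, a judgement made from general knowledge of the protein, so the probe may not read the messenger. Its partner COX4I2, the lung form, was not in the table.

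Strand was seen directly for COX5B. The probes A_72_P760099 and O12003 are reverse complements over 56 bases without a mismatch, shown in capitals, so they lie on opposite strands.
COX5B A_72_P760099: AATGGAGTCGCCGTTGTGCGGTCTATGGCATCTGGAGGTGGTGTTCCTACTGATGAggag
COX5B O12003: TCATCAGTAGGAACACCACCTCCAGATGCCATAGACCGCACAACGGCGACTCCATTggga
A_72_P760099 differed by 0.12 (adjusted p = 0.169) and O12003 by 0.01 (adjusted p = 0.965) between climates. The brightest COX5B probe and A_72_P737989, which shares 55 bases with it, were up-regulated.

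Of the paralogs of subunit VIIa, COX7A2 and COX7A1 both read below 0 on their brightest probes over 3 breeds. The 2 dimmer COX7A1 probes read above 0. COX7A2, the form made in most tissues, ran from 12.51 to 13.06 (median 12.93) in F1 TN and 12.21 to 12.65 (12.54) in F1 HS, from 12.44 to 13.52 (12.74) and 12.53 to 12.73 (12.69) in CR, and from 12.60 to 13.06 (12.67) and 12.51 to 12.97 (12.70) in LW. It was down-regulated by -0.20 ± 0.08 (adjusted p = 0.0458), and all 6 probes were negative, 5 of them called. The COX7A2 probes other than the brightest share 45 to 55 bases with each other, so they are not separate measurements. The call on the brightest probe was lost with any of 21 single arrays left out (adjusted p up to 0.09). COX7A1, the form known from heart and muscle, read -0.15 ± 0.10 (adjusted p = 0.254) on its brightest probe but was up-regulated on its other probes, O11686 by 0.29 ± 0.08 (adjusted p = 0.00923) and A_72_P303109 by 0.33 ± 0.08 (adjusted p = 0.00321). In F1 the brightest COX7A1 probe ran from 9.14 to 9.75 (9.33) in TN and 8.44 to 9.30 (8.87) in HS and was down-regulated by -0.54 ± 0.16 (adjusted p = 0.00838), while O11686 ran from 8.18 to 8.45 (8.38) and 8.19 to 8.66 (8.47). In CR the brightest probe ran from 8.68 to 9.34 (9.15) in TN and 8.73 to 9.41 (8.88) in HS, and in LW from 8.66 to 9.49 (9.04) and 8.93 to 9.53 (9.17). No direction for COX7A1 held over its 3 probes. The O11686 sequence is given because it read against the brightest probe.
COX7A1 O11686: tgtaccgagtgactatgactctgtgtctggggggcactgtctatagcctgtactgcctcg
COX7A2L, a factor that joins complexes III and IV, read 0.00 ± 0.12 (adjusted p = 0.998).

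Other members of complex IV did not pass the test over 3 breeds. COX6A1, the common form of subunit VIa, read -0.10 ± 0.07 (adjusted p = 0.236), with group means between 14.29 and 14.51. Of its 8 probes 6 were negative over 3 breeds, and in F1 its 1 positive probe was up-regulated by 0.30. COX6B1 read 0.11 ± 0.05 (adjusted p = 0.0771) and COX7B -0.26 ± 0.13 (adjusted p = 0.127). COX6C read -0.42 ± 0.24 and COX7C -0.43 ± 0.22 with all 5 and all 3 of their probes negative and none called. COX8H, the heart form of subunit VIII, read 0.28 ± 0.26 and was well above background on 28 of 35 arrays.

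**Figure D3:**
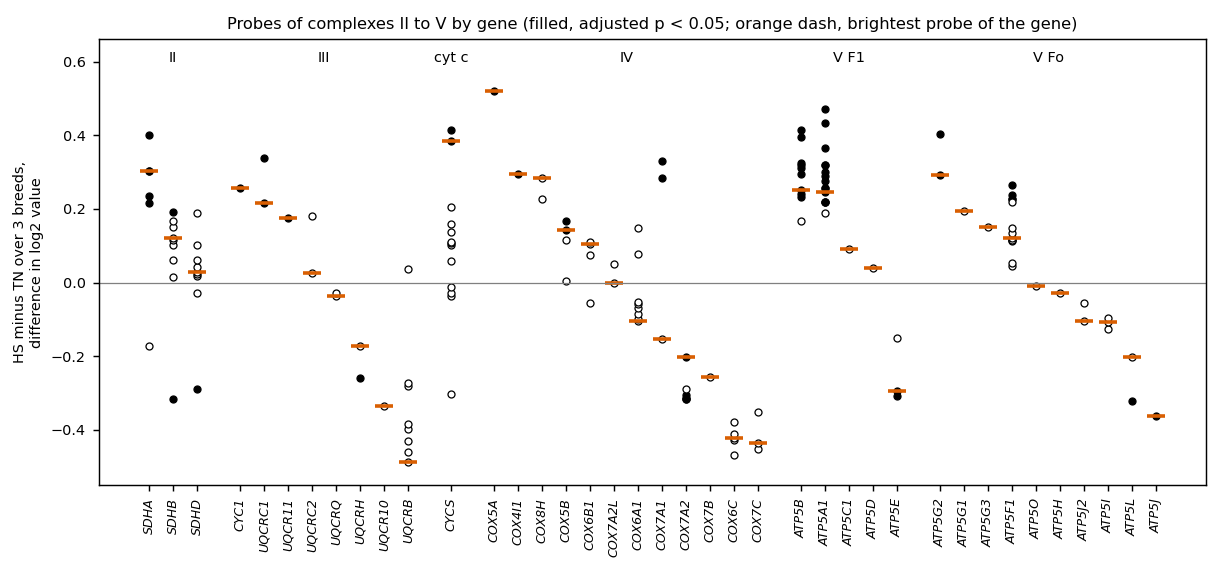
Difference in log2 value between HS and TN over 3 breeds (y axis) for 153 probes (circles), by gene and complex (x axis). Filled circles had adjusted p below 0.05 and the orange dash is the brightest probe of a gene. All 15 ATP5A1 and all 10 ATP5B probes lie above 0 and all 6 COX7A2 probes below it. SDHA, SDHB, SDHD, UQCRB, CYCS, COX6A1, COX6B1, COX7A1 and COX7A2L have probes on both sides.

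In the catalytic head of complex V, 2 of 5 genes were up-regulated and 1 was down-regulated, and 25 of 30 probes were called, 23 higher and 2 lower. Of all probes 34.8% were called, 20.1% higher and 14.7% lower. The genes ATP5A1 and ATP5B account for 25 of the 30 probes of the head, which are not separate measurements of the complex. ATP5A1, the alpha subunit, is at chr1:95738789-95750835. It ran from 12.25 to 12.95 (median 12.58) in F1 TN and 12.80 to 13.42 (13.16) in F1 HS, with 1 TN pig inside the HS range. It ran from 12.60 to 13.06 (12.85) and 12.44 to 13.36 (13.18) in CR, and from 12.75 to 13.29 (12.88) and 12.73 to 13 (12.90) in LW. The difference was 0.25 ± 0.09 over 3 breeds (adjusted p = 0.0279, and 0.0514 without F1 HS replicate 6), 0.55 ± 0.13 in F1 (adjusted p = 0.00245), 0.24 ± 0.14 in CR and -0.05 ± 0.13 in LW. All 15 ATP5A1 probes were positive over 3 breeds, between 0.19 and 0.47, and 14 were called.

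ATP5B, the beta subunit that carries the catalytic sites, is at chr5:21984750-21992393. It ran from 12.94 to 13.34 (13.21) in F1 TN and 13.26 to 13.92 (13.57) in F1 HS, from 12.79 to 13.39 (13.36) and 12.66 to 13.89 (13.61) in CR, and from 13.18 to 13.58 (13.32) and 13.08 to 13.69 (13.55) in LW, overlapping in each breed. ATP5B was up-regulated by 0.25 ± 0.09 (adjusted p = 0.0285), a call lost without CR TN replicate 2 or without F1 HS replicate 6 (adjusted p up to 0.0551). Its 10 probes were all positive, between 0.17 and 0.41, and 9 were called. ATP5E, the epsilon subunit at chr17:59163085-59174488, went the other way. It ran from 16.57 to 17.35 (16.95) in F1 TN and 15.86 to 16.86 (16.44) in F1 HS, from 16.45 to 17.19 (16.82) and 16.25 to 17.14 (16.82) in CR, and from 16.78 to 17.20 (16.92) and 16.49 to 16.91 (16.69) in LW. The ATP5E difference was -0.29 ± 0.10 over 3 breeds (adjusted p = 0.0213), and its 3 probes were all negative, 2 of them called. ATP5C1 (0.09) and ATP5D (0.04), the gamma and delta subunits, did not pass the test (adjusted p = 0.345 and 0.662).

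In the membrane part and side stalk, 1 of 10 genes was up-regulated and 1 down-regulated over 3 breeds, where 34.8% of all probes were called. The 3 genes of subunit c, ATP5G1, ATP5G2 and ATP5G3, encode the same mature protein of the rotor ring. Their probes are distinct but ATP5G1 and ATP5G2 share 18 bases at the end of the coding sequence, in capitals.
ATP5G1 A_72_P177586: gtcgccttccttATCCTCTTCGCCATGTGA
ATP5G2 O6026: gtggcctttctcATCCTCTTCGCCATGTGA
ATP5G2 ran from 12.71 to 13.26 (median 13.06) in F1 TN and 13.24 to 13.92 (13.55) in F1 HS, from 13.01 to 13.58 (13.41) and 12.79 to 13.86 (13.60) in CR, and from 13.06 to 13.45 (13.25) and 13.26 to 13.68 (13.55) in LW. ATP5G2 was up-regulated by 0.29 ± 0.09 (adjusted p = 0.0133). ATP5G1 differed by 0.19 ± 0.09 (adjusted p = 0.0725) and ATP5G3 by 0.15 ± 0.09 (adjusted p = 0.171). In F1 alone ATP5G3 was up-regulated by 0.47 ± 0.13 (adjusted p = 0.008), and it differed by 0.08 in CR and -0.10 in LW.

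ATP5F1, subunit b of the side stalk, read 0.12 ± 0.07 over 3 breeds (adjusted p = 0.189) and was up-regulated in F1 by 0.37 ± 0.11 (adjusted p = 0.0114), with all 13 probes positive over 3 breeds and 4 called. ATP5J, coupling factor 6, ran from 9.10 to 10.81 (median 9.99) in F1 TN and 9.08 to 9.58 (9.43) in F1 HS, from 9.24 to 10.24 (9.87) and 9.47 to 10.16 (9.63) in CR, and from 9.18 to 10.31 (9.91) and 9.17 to 10.36 (9.32) in LW. ATP5J was down-regulated by -0.36 ± 0.14 (adjusted p = 0.0482), a call lost with any of 24 single arrays left out (adjusted p up to 0.0887). ATP5L read -0.20 ± 0.08 (adjusted p = 0.0511) on its brightest probe. Its other and dimmer probe, A_72_P203782, was down-regulated by -0.32 over 3 breeds and by -0.42 in F1. ATP5H, ATP5I, ATP5J2 and ATP5O read between -0.11 and -0.01.

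The heat difference of each breed was taken as a contrast of the joint fit of 6 group means. In F1, 16 of 39 genes were called, 11 higher and 5 lower, where 38.7% of all probes were called, 20.8% higher and 17.9% lower. The median difference was 0.14 over the 39 genes and 0.13 over all probes. The largest was COX5A with 0.96, followed by CYCS with 0.87, and the most negative UQCRB with -0.72, which did not pass the test. With the erythroid list mean as a covariate, 4 of 39 genes were called in F1, all higher. Of all 39072 probes 9.06% were called under it, 851 higher and 2689 lower. Among the named genes CYCS, ATP5A1 and ATP5G3 passed then (adjusted p = 0.0175, 0.0276 and 0.0228), and SDHA gave 0.37 (adjusted p = 0.0564). In CR and LW 0 of 39 genes and 0% of all probes were called by limma. At an unadjusted p under 0.05 there were 1 gene (SDHA) and 10 probes in CR and 3 genes (COX4I1, COX6B1 and UQCR11) and 11 probes in LW, where 8.87% of all probes in CR and 8.71% in LW lay under it. Array weights called 1 gene and 5 probes in CR, where they called 4.39% of all probes, and 0 in LW. The smallest adjusted p among the members was 0.557 in CR and 0.563 in LW.

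Whether the heat difference differed between breeds was tested by an interaction term. It called 0 of 153 probes and 0% of all 39072, with 19 of the 153 and 14.9% of all probes at an unadjusted p under 0.05, and 0 of the 153 called with array weights. Among the genes COX7A1 had the smallest p (0.0081, adjusted p = 0.278), followed by ATP5A1 (0.0123). Between F1 and LW, the heat difference of ATP5A1 differed by 0.60 ± 0.19 (adjusted p = 0.122), that of CYCS by 0.86 ± 0.31 (adjusted p = 0.129) and that of COX7A1 by -0.75 ± 0.22 (adjusted p = 0.122). At this number of arrays no member passed the test of a difference between breeds in the heat response.

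Breeds were compared over both climates. Between CR and LW, 1 of 153 probes was called, where 1.08% of all probes were, and 0 of 39 genes, with 5 genes and 3950 of all 39072 probes at an unadjusted p under 0.05. That probe, CYCS A_72_P592869, overlaps another CYCS probe over 52 bases with 3 mismatches (G9A, G11C and C21T counted from its first base). The first 30 bases of the overlap are given, with the mismatches in capitals.
CYCS A_72_P592869: gctgtaccGtGagcacagatCtgtaaatta
CYCS A_72_P573694: gctgtaccAtCagcacagatTtgtaaatta
On A_72_P592869 all 11 CR pigs lay between 8.02 and 9.15 and the 12 F1 pigs between 6.77 and 9.15. The 12 LW pigs lay between 5.00 and 8.01, so the highest LW pig was just below the lowest CR pig. How many of all probes keep these breeds apart was not counted. The CR minus LW difference was 1.94 ± 0.35 (adjusted p = 0.00144), with 1.76 in TN pigs alone (adjusted p = 0.379, 0.0845% of all probes called) and 2.09 in HS pigs alone (adjusted p = 0.0476, 0.392% called). The probe was well above background in 8 of 12 LW pigs. On A_72_P573694 the breeds overlapped, from 7.80 to 9.45 in CR, 7.52 to 9.36 in F1 and 8.24 to 9.99 in LW, with a difference of -0.27 ± 0.22 (adjusted p = 0.802). None of the 12 other CYCS probes was called between CR and LW, so the breed difference of A_72_P592869 was not shared by the gene's other probes.

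**Figure D4:**
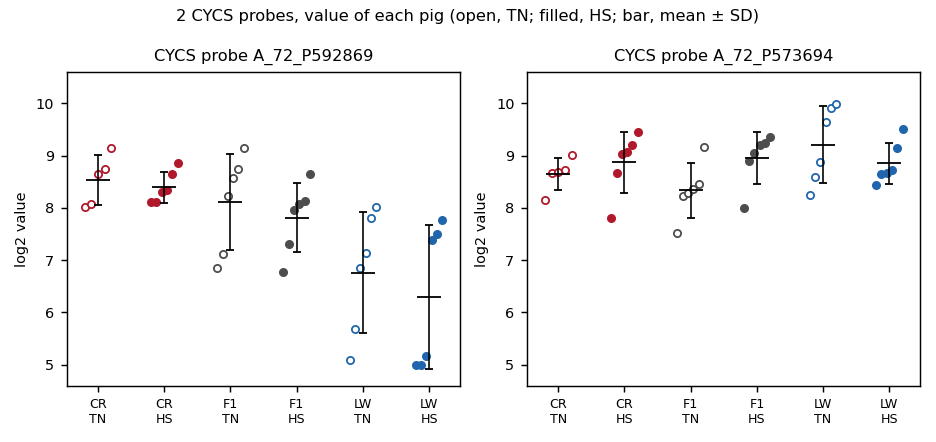
Log2 value (y axis) of 2 overlapping CYCS probes in each pig of the 6 groups (x axis). Circles are pigs, open for TN and filled for HS, and bars are the mean ± SD (n = 5 in CR TN, otherwise 6). On the left-hand probe LW pigs lie between 5.00 and 8.01 and no CR pig is below 8.02, and on the right-hand probe the breeds overlap.

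F1 and LW pigs differed on 0 of 153 probes (0.0256% of all probes called, 11 of the 153 and 4.48% of all probes at an unadjusted p under 0.05) and F1 and CR pigs on 0 (0.184%, with 4 of the 153 and 4.95% of all probes). COX5A had the largest CR minus LW difference among the genes, 0.65 (adjusted p = 0.212). UQCRC2, a core protein of complex III, read higher in CR and in F1 than in LW by 0.36 and 0.40 on its brightest probe (adjusted p = 0.333 and 0.772), which did not pass the test. Its other probe differed by only 0.06 and 0.01. In these breed comparisons the F1 and CR pigs were each set against the same LW pigs.

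Genes outside the chain were read by 5 probes that the name rule caught. Over 3 breeds ATP5SL (0.27), COX4NB (0.33), SDHAP3 (0.33) and SDHAF1, an assembly factor of complex II (0.21, adjusted p = 0.0498), were up-regulated and CYCLT1 (-0.56, adjusted p = 0.00271) was down-regulated. In F1, CYCLT1 ran from 7.91 to 8.37 in TN and from 6.64 to 7.51 in HS.

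Genes that work beside the complexes were counted from lists chosen with earlier results of these data known. Their counts, and those of the cell lists after them, stand against 20.1% of all probes called higher and 14.7% lower, nearly all of which lost the call under the erythroid covariate. Of 16 measured citric acid cycle genes, 10 were up-regulated and 1 down-regulated over 3 breeds, with a median of 0.25. SUCLG1, of succinyl-CoA ligase, rose by 0.41 ± 0.09 and MDH2, mitochondrial malate dehydrogenase, by 0.40 ± 0.09, while DLAT, of the pyruvate dehydrogenase complex, fell by 0.83 on the log2 scale. Of 10 assembly factors of complex IV, 5 rose and 1 fell. CCDC56 and SURF1 each rose by 0.25, and COX15, which makes heme A, fell by 1.0 (adjusted p = 0.00159). Of 3 assembly factors of complex III, 1, BCS1L, rose by 0.32. Of 4 assembly factors and inhibitors of complex V, ATPAF2 rose by 0.20 and ATPIF1, the inhibitor of the synthase, fell by 0.69 (adjusted p = 0.00223). Of 9 carriers and uncoupling genes, SLC25A3, the phosphate carrier, rose by 0.30 and SLC25A4 by 0.25, while UCP2, an uncoupling protein, fell by 0.50. The CKMT2 probe, well above background on 10 of 35 arrays, fell by 0.17.

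Of 8 regulators of mitochondrial biogenesis, GABPA rose by 0.16 and PPRC1 fell by 0.44. Of 6 genes of isoform switch and hypoxia, LONP1 rose by 0.32, PDK1 by 0.33 and NDUFA4L2 fell by 0.30. For blood cell lists, no gene of the neutrophil list passed the test (8 measured, median -0.34, with ELANE at an adjusted p of 0.0548), the monocyte list 2 of 6 higher (CSF1R by 0.51 and VCAN by 0.48), the T cell list 2 of 9 higher (CD2 by 0.33 and CD4 by 0.31), the B cell list 2 of 5 higher (MS4A1 by 0.38 and CD79B by 0.35), and no gene of the platelet list passed (4 measured, with TUBB1 at an adjusted p of 0.118). In the erythroid list HEMGN fell by 1.25 and TFRC by 1.11, and SLC4A1 rose by 0.27. Of 6 muscle and liver genes ACTA1 rose by 0.35 and CKM, MB and MYH2 fell, by 0.83, 0.50 and 0.23, with MYH2 well above background on 21 of 35 arrays. The part of these cell lists in the values of the complexes was not tested beyond the erythroid covariate above.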

How the data were processed

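RNA of 35 whole-blood samples had been hybridised by the authors to a 1-colour Agilent porcine array with probes of 60 bases. The deposited scanner files hold raw median intensity, local background and a processed, background-subtracted intensity from Agilent Feature Extraction 10.10.1.1. The authors had deposited log2 values of 39072 expressed probes after quantile normalization between arrays; the filter rule is not given in the sources used here. These log2 values were used throughout, and quantile values recomputed from median intensity correlated with them at 0.999971 (largest difference 0.322). No value column was left without a sample. Precision is limited by the number of arrays.

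Groups came from breed and temperature labels. Differences were tested with limma 3.58.1 in R 4.3.3 with Benjamini-Hochberg adjustment over all 39072 probes: an additive fit of breed and climate, and a fit of 6 group means with an interaction test. The methods of the study also use pen, slaughter day and parents as random effects, which the labels do not give. With them the study reports far fewer called blood probes than the 13601 called here over 3 breeds. The labels do not say which pigs were littermates, so p-values measure the spread between these pigs. Members, gene lists and tests were chosen with earlier results of these data known. A gene was read by its brightest probe over 35 arrays. Genes with values by pig were, in each complex, the 2 largest called rises and falls, called breed differences, the smallest interaction p, and paralogs of 1 subunit, with the 2 largest called rises and falls of each list; further probes were singled out after their values were seen. Alternatives were other normalizations and filters, slide as a block, array weights, the erythroid mean as a covariate, the mean of all probes of a gene, and leaving out arrays or breeds. On simulated data, 77.5% of 200 changes of 0.5 and 95.5% of changes of 1 (log2) were recovered over 3 breeds, and 35% and 80% in F1. The simulation had independent noise for each probe, few changed probes and no pen, litter, brightness or cell differences. These shares therefore do not give the power of the tests on the real data. Gene coordinates are RefSeq's for Sscrofa11.1 (29 of 41 genes matched by accession or symbol); exons were not determined. Probe strand and overlap were found by comparing the deposited sequences.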

Additional observations from a re-analysis of the deposited data

Results flagged for a closer look

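Values of the 19 named genes were searched for a pig standing apart from its group, and 6 of 114 groups of values held one, a share of 5.26% where chance gives about 1 in 20. In CR HS, replicate 1 was low for SDHA (12.67 against 13.27 to 13.56 in the others) and for CYCS (8.48 against 9.66 to 9.99). In the same group replicate 6 was low for COX4I1 (8.19 against 8.67 to 8.95). In LW HS, replicate 1 was low for CYCS (8.55 against 9.33 to 9.63). In F1 HS, replicate 5 was low for COX7A2 (12.21 against 12.50 to 12.65), and in CR TN, replicate 2 was low for ATP5B (12.79 against 13.33 to 13.39).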

How the results depend on the processing

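Of 138 counts of called members under alternatives other than leaving out 1 array, 125 were within 1.5 times the reported count. This tally includes the many comparisons with a reported count of 0, scored as within the limit where they stayed at 0. It therefore does not measure how firm the calls are. Over 3 breeds the 14 genes and 59 probes became 0 and 0 without F1 pigs, and 0 and 0 with the erythroid mean as covariate (2 of all probes called). Under the covariate none of the named genes was called over 3 breeds. Those called higher without it then read CYCS 0.42, COX5A 0.36, COX4I1 0.27, SDHA 0.24, ATP5A1 0.21, CYC1 0.20, ATP5B 0.19, ATP5G2 0.16 and UQCRC1 0.12. The 3 lower genes read between -0.09 and -0.08. In F1 the 16 genes became 4 with the erythroid covariate, which called 9.06% of all probes, and 10 with array weights, which called 26.1%. The 64 probes became 12 with the covariate. Array weights gave 1 gene and 5 probes in CR (reported 0 and 0), 2 genes and 10 probes between CR and LW (reported 0 and 1) and 1 probe between F1 and LW (reported 0), where they called 4.39%, 3.9% and 0.0998% of all probes. In TN pigs alone 0 probes were called between CR and LW. The cause was not tested. Leaving out 1 array gave 9 to 17 genes and 42 to 70 probes over 3 breeds, 11 to 23 genes and 45 to 80 probes in F1 (23 genes without F1 TN replicate 6), 1 probe and 0 genes between CR and LW, and 0 for CR, LW, the interaction, F1 minus LW and F1 minus CR. No called value of a named gene changed sign. Among values that did not pass the test, COX7A1 over 3 breeds read 0.011 with the erythroid covariate, 0.155 as the mean of its probes and 0.054 without F1 pigs, and COX7A2L read 0.00 on recomputed quantile values with the detection filter and 0.00 without a filter, 0.036 with the processed signal scaled to its 75th percentile, 0.005 with array weights, 0.025 as the mean of its probes, 0.122 without LW pigs and -0.053 to 0.040 with 1 array left out. ATP5G3 read -0.015 without F1 pigs, and COX6A1 in F1 read 0.027 with the erythroid covariate. Calls over 3 breeds were further lost for COX7A2 with the processed signal scaled to its 75th percentile (-0.18, adjusted p = 0.145) and for ATP5J with slide as a block (-0.36, adjusted p = 0.0551). The calls of ATP5J and COX7A2 were lost too with all probes tested, that of ATP5J with the processed signal (adjusted p = 0.0772), those of ATP5A1 and COX7A2 without CR pigs (0.0651 and 0.106) and those of ATP5E, ATP5G2 and ATP5J without LW pigs (0.0898, 0.0592 and 0.123). In F1, array weights ended the calls of COX5A (adjusted p = 0.12), COX4I1 (0.0522), COX7A2 (0.185), ATP5J (0.115) and COX7A1 (0.0507), the processed signal those of COX7A2 (0.0583) and ATP5B (0.0932), and all probes tested that of ATP5B (0.0513). COX7A1 in F1 read -0.05 as the mean of its probes (adjusted p = 0.75). Within the 5 slides the median HS minus TN difference over the 39 genes was -0.04, 0.05, 0.04, 0.10 and 0.16. No paired analysis was possible because replicate numbers follow the order of the records and pair no pigs. Dim probes limit COX8H, CKMT2, MYH2, CYCS A_72_P592869 and CYCS O10663, which was well above background on 19 of 35 arrays.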
